A study of Mus musculus with 17 samples.

Results

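Toll-like receptors are innate immune sensors, and the genes described here were every panel gene whose symbol is Tlr followed by digits, plus Cd14 and Tbk1. The panel held 2 such receptor genes, Tlr3 and Tlr7, so the set had 4 genes of the 988 counted. Both receptors work inside endosomes, and no Toll-like receptor of the cell surface was among the counted genes, so Cd14, a co-receptor at the cell surface, is the only surface gene here. The contrast of endosomal with surface sensing therefore compares Tlr3 and Tlr7 with Cd14 and cannot describe the surface receptors themselves.

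As background, Tlr3 binds double-stranded RNA and signals through the adaptor Ticam1, whereas Tlr7 binds single-stranded RNA and signals through the adaptor Myd88. Cd14 hands bacterial lipopolysaccharide to Tlr4, is made mainly by monocytes, macrophages and neutrophils, and also exists as a soluble protein. Tbk1 is the kinase that acts below Ticam1 and below the cytosolic DNA and RNA sensors, and it phosphorylates Irf3, which then switches on interferon genes. In the colon these routes read out microbes of the lumen and nucleic acids of damaged or infected cells.

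The libraries came from colon of mice injected intraperitoneally with azoxymethane, a carcinogen that every group received. Kit-B6 animals (C57BL/6) have normal Kit, and Kit-W/sh animals (W-SASH) carry the sash allele of Kit and lack most mast cells as adults. Tumors (6 Kit-B6, 6 Kit-W/sh) were taken at postnatal week 32, after 6 injections in 6 weeks and a further 18 weeks. Preneoplastic colon (3 Kit-B6, 2 Kit-W/sh) was taken at postnatal week 14, after 3 injections in 3 weeks and a further 3 weeks, so stage, age, dose and tissue cannot be told apart. No untreated colon was analysed here.

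Levels are CPM, the share of a library's scaled total that a gene's counts take. One amplicon stands for each gene, so levels were compared between libraries and not between genes. Library totals ran from 616009 to 1399902 counts. Tumors held 94.2 to 476 CPM (Kit-B6) and 49.1 to 258 CPM (Kit-W/sh) of Kit itself, and it was at 264 to 521 against 113 to 125 CPM in preneoplastic colon. The sash allele leaves the coding part of Kit in place, so this amplicon does not test the genotype. The library labelled Kit-W/sh tumor 2 had 460 CPM of the mast cell protease Cpa3, above all other libraries and against its label, and it is named in that way throughout. Kit-B6 tumor 4 lay nearest to the preneoplastic libraries on the first principal component (61% of the variance), at 8.02, where the other tumors lay between -24.9 and -0.29 and the preneoplastic libraries between 28.8 and 34.3. The names of the deposited tables of Kit-B6 tumors 4 and 5 share a code that no other pair of tumors shares, and the labels do not say whether they came from 1 mouse.

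Tlr3 and Tbk1 are shown by the letters before their start sites. Both were lower on average in tumors of both genotypes, though the Tlr3 differences did not pass. The sequences are the 250 bases before the RefSeq start on the GRCm38.p6 build, minus strand, at chr8:45410381-45410630 for Tlr3 and chr10:121586795-121587044 for Tbk1. Capitals mark matches on either strand to the kappa B core, read as GGG, any 5 bases and CC.
Tlr3: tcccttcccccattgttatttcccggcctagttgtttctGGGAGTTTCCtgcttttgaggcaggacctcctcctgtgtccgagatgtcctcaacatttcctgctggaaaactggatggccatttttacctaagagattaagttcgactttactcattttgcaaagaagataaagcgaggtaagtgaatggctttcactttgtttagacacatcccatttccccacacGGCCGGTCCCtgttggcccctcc
Tbk1: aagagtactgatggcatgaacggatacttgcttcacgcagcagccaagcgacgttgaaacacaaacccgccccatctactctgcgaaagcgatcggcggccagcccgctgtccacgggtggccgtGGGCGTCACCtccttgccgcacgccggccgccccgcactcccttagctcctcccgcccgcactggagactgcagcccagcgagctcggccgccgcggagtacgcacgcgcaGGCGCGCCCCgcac
Each window held 2 matches, and 45.8% of 32851 RefSeq promoter windows of this length held at least 1. The core of the interferon-stimulated response element, read as GAAA, any 2 bases and GAAA on either strand, had 0 matches in each window, and 2.98% of all windows held it. The windows differed in base composition, with 48% G and C before Tlr3 and 68.4% before Tbk1. These are letter matches in a short window and say nothing about binding. A window was printed for 2 of the 4 genes.

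**Figure D1:**
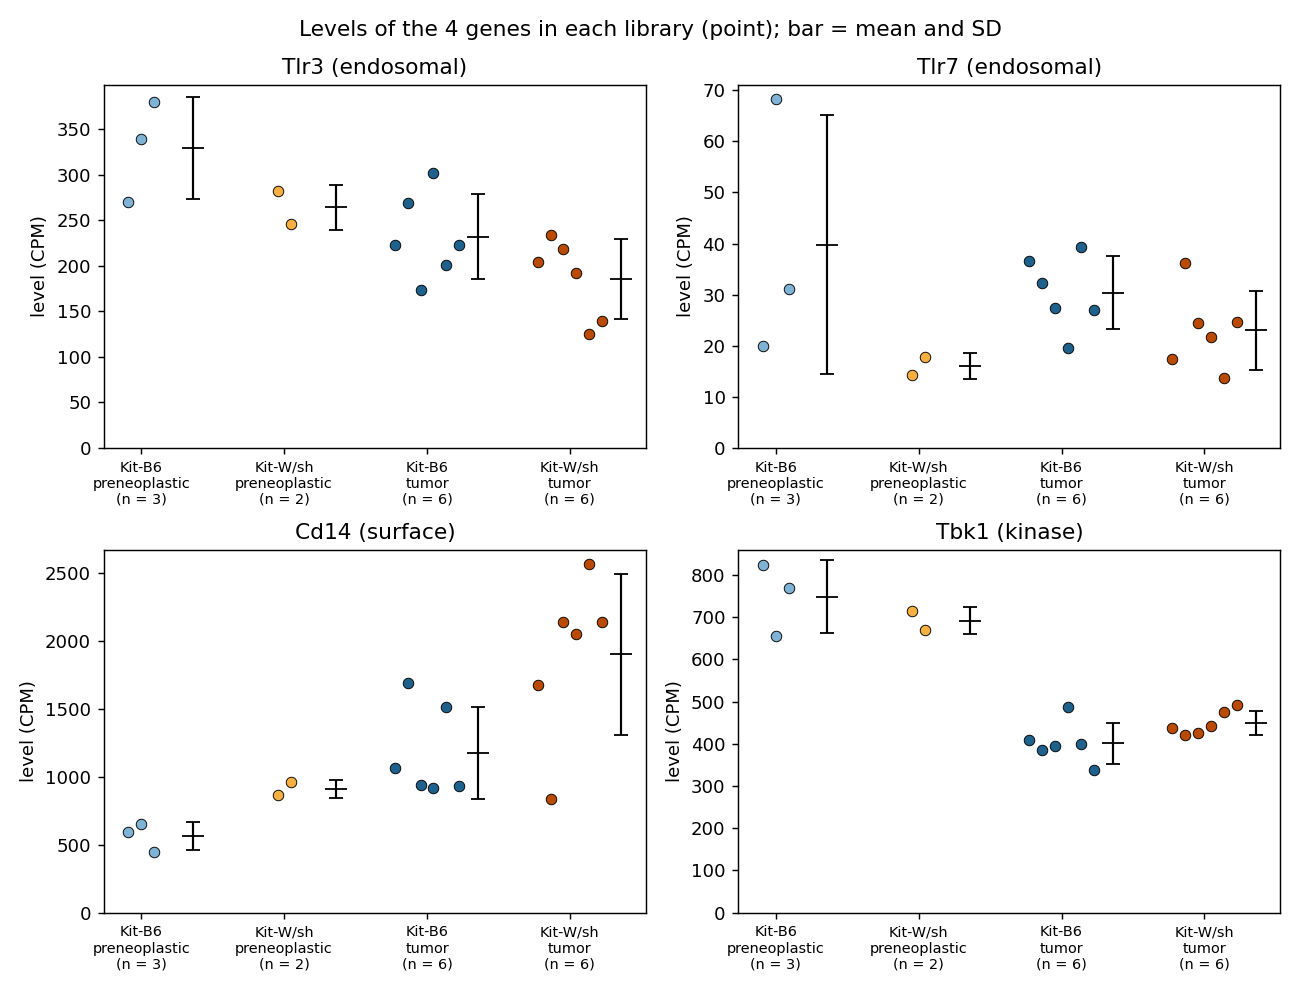
Levels of Tlr3, Tlr7, Cd14 and Tbk1 in CPM (vertical axis, from 0) in the 17 libraries by group; each point is a library and the black mark with its bar is the group mean and SD. Tbk1 lies between 654 and 823 CPM in preneoplastic colon and between 338 and 492 CPM in tumors, while Cd14 reaches its highest values in Kit-W/sh tumors.

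The calls for the 4 genes are set here against all genes tested. Between genotypes 0 of the 4 genes passed in tumors, where 0% of 799 genes passed. There 109 genes had an unadjusted p under 0.05, and 27 genes passed with DESeq2. In preneoplastic colon 0 of 4 passed, where 0.129% of 777 genes did. At that stage 83 genes had an unadjusted p under 0.05, and 20 genes passed with DESeq2. Of the 4 genes, Cd14 at both stages had an unadjusted p under 0.05 (0.0175 and 0.0139). No gene of the 4 was free of overlap between genotypes in tumors, where 0.626% of genes were, and 2 were in preneoplastic colon (Cd14 and Tlr7), where 30% were. In Kit-B6 mice 1 gene rose (Cd14, where 22.2% of 869 genes rose) and 1 fell (Tbk1, where 18.9% fell). The same 2 genes did so in Kit-W/sh mice, where 20.9% rose and 18.8% fell. Groups were free of overlap across stages for 2 of 4 in Kit-B6 (Cd14 and Tbk1, background 29.2%) and for 2 of 4 in Kit-W/sh (Tbk1 and Tlr3, background 58.6%). The interaction passed for 0 of 4 genes and for 0% of 869 (63 at an unadjusted p under 0.05, and 1 gene with DESeq2). The comparisons share libraries: each tumor group enters a genotype and a stage comparison, so their values are not independent.

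**Figure D2:**
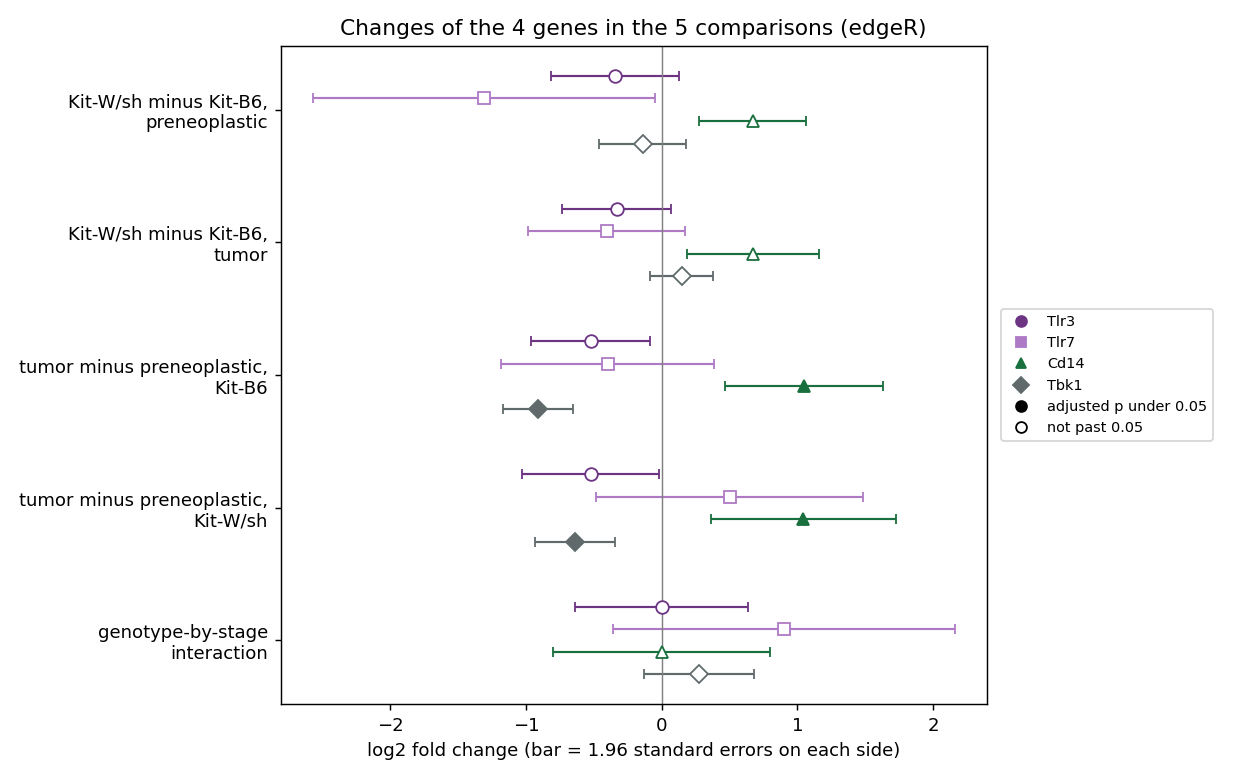
Log2 fold change (horizontal axis) of each gene in the 5 comparisons, with bars for an interval from the standard error and a normal quantile. With few libraries these bars are narrower than a 95% interval of the edgeR test. They exclude 0 for Tlr7 between genotypes in preneoplastic colon, where the unadjusted edgeR p was 0.0848. They also exclude 0 for Tlr3 across stages in Kit-W/sh, where it was 0.0577. Filled symbols have an edgeR adjusted p under 0.05. Filled symbols appear only for Cd14 (right of 0) and Tbk1 (left of 0) in the 2 stage comparisons.

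Cd14 was the surface gene and rose from preneoplastic colon to tumor in both genotypes. Kit-B6 preneoplastic samples 1 to 3 held 590, 654 and 447 CPM of it, and in Kit-B6 tumors the lowest, median and highest were 919, 1001 and 1692 CPM. All 6 tumors lay above all 3 preneoplastic samples. The log2 fold change was 1.05 ± 0.30 (standard error, edgeR adjusted p = 0.0109), or 2.06-fold. In Kit-W/sh mice Cd14 was at 865 and 959 CPM in the 2 preneoplastic samples, and the lowest, median and highest of the 6 tumors were 838, 2093 and 2564 CPM. The groups overlapped only through the library labelled Kit-W/sh tumor 2, which held the 838. The log2 fold change was 1.04 ± 0.35 (edgeR adjusted p = 0.0263), and without that library it was 1.198 ± 0.27 (edgeR adjusted p = 0.0029). The call in Kit-W/sh ended without preneoplastic sample 1 (adjusted p = 0.173) or sample 2 (adjusted p = 0.113), and with reference-gene scaling (adjusted p = 0.0663). The call in Kit-B6 ended without preneoplastic sample 3 (0.90, adjusted p = 0.0593).

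Cd14 averages were also higher with the sash allele at both stages, by nearly the same fold, without passing the test. In tumors the means were 1899 ± 593 CPM in Kit-W/sh and 1177 ± 338 CPM in Kit-B6 (SD, n = 6 and 6). The 5 Kit-W/sh tumors other than the library labelled Kit-W/sh tumor 2 lay between 1672 and 2564 CPM, and Kit-B6 tumors 2 and 5 were the only Kit-B6 tumors above 1062 CPM. The log2 difference was 0.67 ± 0.25 (edgeR adjusted p = 0.258), rank 53 by p among 799 genes. It was 0.82 ± 0.19 (edgeR adjusted p = 0.0517) without the library labelled Kit-W/sh tumor 2, the highest of 12 fits that each left out a library. The lowest was 0.55, without Kit-W/sh tumor 5, and the edgeR adjusted p over these fits reached 0.565. In preneoplastic colon the means were 912 ± 66.3 CPM (n = 2) and 564 ± 106 CPM (n = 3), and the groups did not overlap. The log2 difference was 0.67 ± 0.20 (edgeR adjusted p = 0.338). The interaction of genotype with stage was -0.00107 ± 0.41 on the log2 scale (edgeR adjusted p = 0.9998). Its interval from the standard error and a normal quantile was -0.80 to 0.80. With few libraries this interval, and those given below for Tbk1 and Tlr3, are narrower than a 95% interval of the edgeR test. The 4 group means of Cd14 ran from Kit-W/sh tumor through Kit-B6 tumor and Kit-W/sh preneoplastic to Kit-B6 preneoplastic, where only the last step was free of overlap and the middle pair differed by less than an SD.

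Summed myeloid markers were higher in most tumors than in preneoplastic colon, as Cd14 was, and their part in its level was not tested. In bulk tissue, fewer cells of a type and less RNA per cell cannot be told apart. The 5 neutrophil markers on the panel summed to 14.0 to 27.1 CPM (Kit-B6) and 17.8 to 20.6 CPM (Kit-W/sh) in preneoplastic colon. The tumor sums were 76.6 to 391 CPM and 386 to 944 CPM in that order. Of these, Mpo was at 0 in all preneoplastic libraries. The 7 monocyte and macrophage markers summed to 595 to 801 CPM and 380 to 548 CPM in preneoplastic colon, and to 520 to 2141 and 1105 to 1521 CPM in tumors. Of these 7, 2 rose and 1 fell in Kit-B6, and 5 rose and 1 fell in Kit-W/sh. The one that fell was Cd163, a scavenger receptor of macrophages (-2.45 ± 0.94, edgeR adjusted p = 0.0457, and -3.22 ± 1.11, edgeR adjusted p = 0.0309). In preneoplastic colon, where Cd14 averaged higher in Kit-W/sh, this macrophage sum was lower in both Kit-W/sh libraries than in all 3 Kit-B6 libraries. In tumors the median macrophage sums were 1364 CPM in Kit-W/sh and 1113 CPM in Kit-B6, and the neutrophil medians 615 and 301 CPM. Kit-B6 tumor 4, with the least Cd14 of the Kit-B6 tumors, also had the least of both lists (76.6 and 520 CPM). Other tumors followed that order only in part. Kit-B6 tumor 2, with the most Cd14 of the Kit-B6 tumors (1692 CPM), had neutrophil and macrophage sums of 265 and 972 CPM. The library labelled Kit-W/sh tumor 2 had the least Cd14 of all tumors (838 CPM). Its macrophage sum, 1521 CPM, was the highest of the Kit-W/sh tumors, and its neutrophil sum, 386 CPM, was the lowest of them. Kit-W/sh tumor 5, with the most Cd14 of all tumors (2564 CPM), had the highest neutrophil sum (944 CPM). Its macrophage sum was 1335 CPM.

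Tbk1, the kinase, fell from preneoplastic colon to tumor in both genotypes. It was at 823, 654 and 768 CPM in Kit-B6 preneoplastic samples 1 to 3, and the lowest, median and highest of the 6 Kit-B6 tumors were 338, 396 and 487 CPM. In Kit-W/sh mice it was at 714 and 670 CPM in preneoplastic samples 1 and 2, and at 420, 440 and 492 CPM as the lowest, median and highest tumor. No tumor of either genotype reached any preneoplastic sample. The log2 fold change was -0.91 ± 0.13 in Kit-B6 (edgeR adjusted p = 9.86e-05), a fold of 0.531, and -0.64 ± 0.15 in Kit-W/sh (edgeR adjusted p = 0.00421), a fold of 0.642. The call in Kit-W/sh ended without preneoplastic sample 1 (-0.58, adjusted p = 0.074) and with reference-gene scaling (-0.48 ± 0.27, adjusted p = 0.202).

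Between genotypes no difference of Tbk1 passed the test. In tumors the means were 449 ± 29 CPM in Kit-W/sh and 402 ± 48.6 CPM in Kit-B6, with a log2 difference of 0.15 ± 0.12 (edgeR adjusted p = 0.598) and an interval of -0.09 to 0.38. All 6 Kit-W/sh tumors lay above the Kit-B6 median, and the groups overlapped because Kit-B6 tumor 4 held 487 CPM. In preneoplastic colon the log2 difference was -0.14 ± 0.16 (edgeR adjusted p = 0.804), and the interaction was 0.27 ± 0.21 (edgeR adjusted p = 0.854, interval -0.13 to 0.68). The order of its means was Kit-B6 preneoplastic, Kit-W/sh preneoplastic, Kit-W/sh tumor and Kit-B6 tumor, and only the step between stages exceeded the SD of the groups. The 2 measured epithelial markers (Epcam and Car4, of 10 listed) summed to 50236 to 121392 CPM in preneoplastic colon and 24585 to 49695 CPM in tumors, and their part in the lower Tbk1 and Tlr3 of tumors was not tested. Epcam alone averaged between 26788 and 28115 CPM in the 4 groups. Tbk1 had the lowest spread of the 4 genes, with an SD of 4.46% to 12.1% of the mean in the 4 groups.

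Tlr3, the endosomal receptor for double-stranded RNA, had lower averages in tumors than in preneoplastic colon in both genotypes, and neither difference passed. It was at 270, 340 and 380 CPM in Kit-B6 preneoplastic samples 1 to 3 and at 174, 223 and 302 CPM as the lowest, median and highest Kit-B6 tumor. The groups overlapped through Kit-B6 tumor 4, the highest tumor. The log2 fold change was -0.52 ± 0.22 (edgeR adjusted p = 0.0701), and without Kit-B6 tumor 4 it was -0.61 (edgeR adjusted p = 0.0317), which passes. Of 9 fits that each left out a library, 8 did not pass, with an edgeR adjusted p of up to 0.232. The smallest change was -0.41, without Kit-B6 preneoplastic sample 3. In Kit-W/sh mice Tlr3 was at 282 and 246 CPM in preneoplastic samples 1 and 2 and at 125, 198 and 234 CPM as the lowest, median and highest tumor, and here the groups did not overlap. The log2 fold change was again -0.52 ± 0.26 (edgeR adjusted p = 0.113).

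Tlr3 was also lower on average in Kit-W/sh mice at both stages, and neither difference passed. The tumor means were 185 ± 43.7 CPM in Kit-W/sh and 232 ± 46.6 CPM in Kit-B6, with a log2 difference of -0.33 ± 0.21 (edgeR adjusted p = 0.484, interval -0.74 to 0.07). Of the Kit-W/sh tumors, 5 of 6 lay below the Kit-B6 median, and samples 5 and 6, at 125 and 139 CPM, were the lowest of all 17 libraries. In preneoplastic colon the difference was -0.34 ± 0.24 (edgeR adjusted p = 0.622). The interaction was -0.00081 ± 0.32 (edgeR adjusted p = 0.9998, interval -0.64 to 0.63). The group means of Tlr3 ran from Kit-B6 preneoplastic through Kit-W/sh preneoplastic and Kit-B6 tumor to Kit-W/sh tumor, and all neighbours in that order overlapped.

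Tlr7, the endosomal receptor for single-stranded RNA, gave few counts, between 8 and 55 per library, and no comparison passed. The lowest, median and highest Kit-B6 tumors held 19.7, 29.8 and 39.4 CPM, and the Kit-W/sh tumors 13.7, 23.1 and 36.3 CPM. The 36.3 belonged to the library labelled Kit-W/sh tumor 2. The log2 difference was -0.40 ± 0.30 (edgeR adjusted p = 0.588), and -0.59 without that library. Over 12 fits that each left out a library, the other extreme was -0.31, without Kit-B6 tumor 5. The edgeR adjusted p of these fits ran from 0.279 to 0.738. Summed over tumors, 171 counts in Kit-W/sh against 191 in Kit-B6 gave a ratio of unscaled shares of 0.756 (95% exact Poisson interval 0.612 to 0.934), which covers counting error only and leaves out the spread between tumors.

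The widest spread of Tlr7 was in Kit-B6 preneoplastic colon, at 19.9, 68.3 and 31 CPM in samples 1 to 3, against 14.3 and 17.9 CPM in the 2 Kit-W/sh samples. The 2 genotypes did not overlap there, and the log2 difference was -1.31 ± 0.64 (edgeR adjusted p = 0.518), or -0.68 without Kit-B6 sample 2. The Kit-W/sh libraries held 8 and 13 counts, so at this depth the difference rests on few counts. The 2 libraries with the most Tlr7 also had the most B cell marker counts, and the other 3 did not follow that order. The 8 B cell markers on the panel summed to 150, 2888 and 1010 CPM (Kit-B6 samples 1 to 3), and the Kit-W/sh samples 1 and 2 held 323 and 151 CPM. The 3 measured markers of plasmacytoid dendritic cells summed to 1841 to 5397 CPM for the Kit-B6 and 1715 to 1746 CPM for the Kit-W/sh samples. Most of that sum was Bst2, also an interferon-induced gene, at 3048 ± 1638 against 1039 ± 94.7 CPM, while Irf8 ran the other way at 511 ± 62.5 against 624 ± 46.9 CPM. The part of these cells in the level of Tlr7 was not tested. The stage change of Tlr7 was -0.40 ± 0.40 in Kit-B6 (edgeR adjusted p = 0.434) and 0.50 ± 0.50 in Kit-W/sh (edgeR adjusted p = 0.432), and the Kit-B6 value turned to 0.25 without preneoplastic sample 2. The interaction was 0.90 ± 0.64 (edgeR adjusted p = 0.814), so the opposite signs are not shown to differ. Its group means ran from Kit-B6 preneoplastic through Kit-B6 tumor and Kit-W/sh tumor to Kit-W/sh preneoplastic, and all neighbours overlapped.

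Unscaled library totals moved the median gene by 0.25 on the log2 scale in both stage comparisons, so the stage values of these genes are relative to the scaling. Ratios of 2 genes inside a library do not depend on it. The ratio of Cd14 to Tlr3 counts was 2.18, 1.92 and 1.18 in Kit-B6 preneoplastic samples 1 to 3 and 3.06 and 3.89 in the 2 Kit-W/sh samples. It was 3.04, 5.07 and 7.52 as the lowest, median and highest Kit-B6 tumor and 3.58, 10.2 and 20.4 in Kit-W/sh tumors. Kit-B6 preneoplastic colon thus had the lowest ratios with no overlap with any other group, Kit-W/sh preneoplastic colon lay within the range of Kit-B6 tumors, and 5 of 6 Kit-W/sh tumors (8.18 to 20.4) lay above every Kit-B6 tumor. The exception was the library labelled Kit-W/sh tumor 2, at 3.58.

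The ratio of Cd14 to Tlr7 counts gave a similar picture for genotype, but it uses the same Cd14 counts and is not a separate observation. Before tumors it was 9.47 to 28.4 (Kit-B6) and 51.7 to 57.1 (Kit-W/sh). In tumors it was 28.7 to 51.3 in Kit-B6 and 84.9 to 181 in Kit-W/sh, apart from the library labelled Kit-W/sh tumor 2, which was lowest of all tumors at 22.9. The ratio of Tlr3 to Tlr7 overlapped between genotypes in tumors, at 5.05 to 15 (Kit-B6) and 5.55 to 11.5 (Kit-W/sh). The preneoplastic ratios were 4.92 to 13 (Kit-B6) and 13.3 and 18.6 (Kit-W/sh), a narrow gap with no overlap. The ratio of Cd14 to Tbk1 separated the stages, at 0.582 to 1.43 in the 5 preneoplastic libraries and 1.88 to 5.39 in the 12 tumors. These ratios are a description and carry no test, and no share of all ratios free of overlap was computed. For single genes that share was 30% between genotypes in preneoplastic colon.

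**Figure D3:**
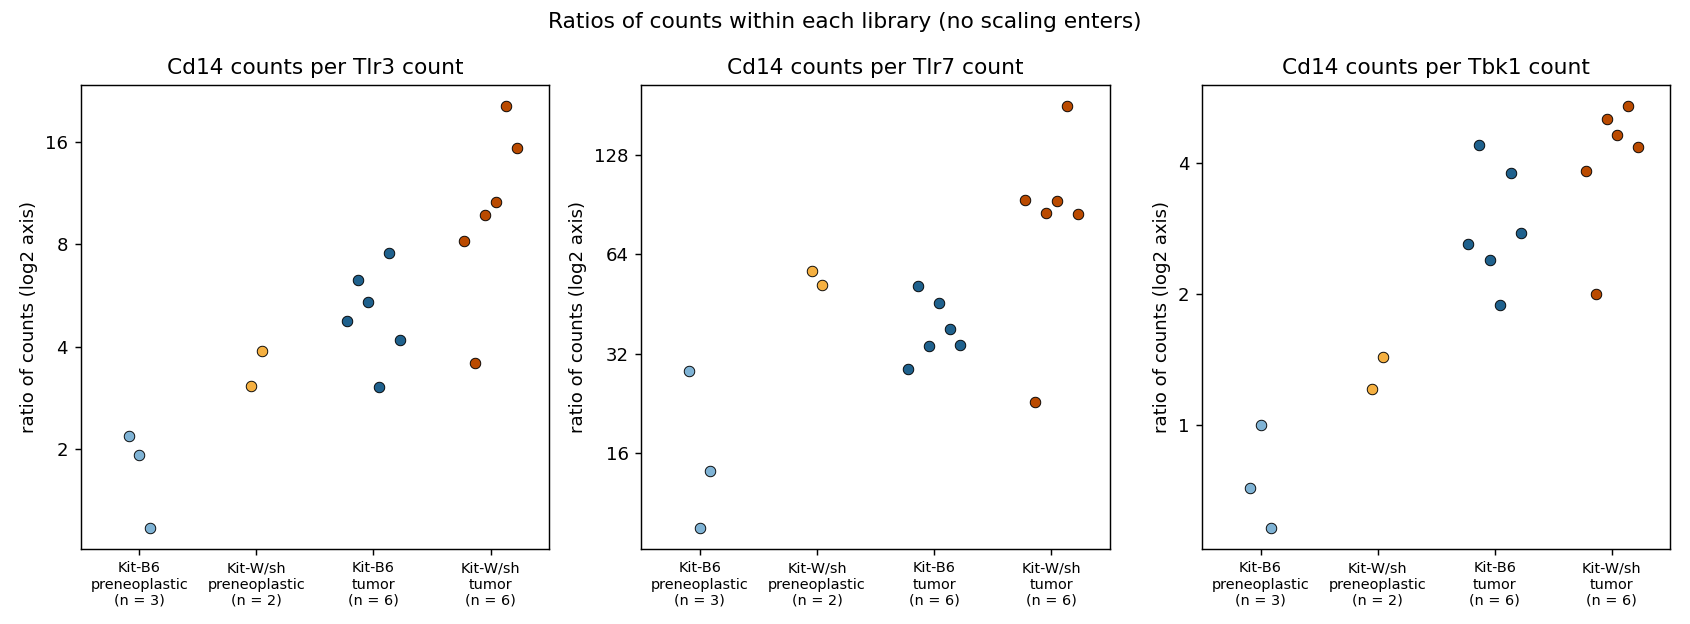
Ratio of Cd14 counts to Tlr3, Tlr7 and Tbk1 counts (vertical log2 axis) in each library (point) by group. The Cd14 to Tbk1 ratio is at most 1.43 in preneoplastic colon and at least 1.88 in tumors; in all 3 panels the lowest Kit-W/sh tumor comes from the library labelled Kit-W/sh tumor 2.

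The pathway lists below are to be read against all genes, of which 22.2% rose and 18.9% fell in Kit-B6 and 20.9% rose and 18.8% fell in Kit-W/sh. Of 28 listed adaptors and kinases around Tbk1, 7 were measured, and 2 of 7 fell in each genotype with 0 rising, numbers too small to set the list apart from those shares (median log2 fold change -0.09 in Kit-B6 and -0.31 in Kit-W/sh, against 0.00 and 0.08 over all genes). The 2 that fell were the IKK family kinases Ikbke and Chuk. Ikbke, the closest relative of Tbk1, went from 306 ± 41.8 to 118 ± 32 CPM in Kit-B6 (-1.39 ± 0.21, edgeR adjusted p = 0.000136) and from 327 ± 20.5 to 132 ± 19.1 CPM in Kit-W/sh (-1.32 ± 0.24, edgeR adjusted p = 0.000673). Chuk, a kinase that activates NF-kB, fell by 0.60 and 0.67 on the log2 scale (edgeR adjusted p = 0.00953 and 0.0113). Myd88, the adaptor of Tlr7, falls outside the rule for naming genes and was chosen for that role after its values were seen. It differed by -0.36 ± 0.15 in Kit-B6 (edgeR adjusted p = 0.0651) and by -0.30 ± 0.18 in Kit-W/sh (edgeR adjusted p = 0.187) and did not pass.

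Of 20 listed sensors outside the Toll-like family, 8 were on the panel and 7 were tested, and 2 rose and 2 fell in Kit-B6 while 2 rose and 1 fell in Kit-W/sh, near the shares over all genes. Tmem173 (STING), which relays cytosolic DNA sensing to Tbk1, rose from 180 ± 55.8 to 1095 ± 274 CPM in Kit-B6 (2.59 ± 0.39, edgeR adjusted p = 0.000136) and from 225 ± 28.1 to 1442 ± 607 CPM in Kit-W/sh (2.66 ± 0.47, edgeR adjusted p = 0.000608). Msr1, a scavenger receptor of macrophages, rose by 2.02 ± 0.45 and 2.41 ± 0.55. Mavs, which relays cytosolic RNA sensing to Tbk1, fell by 0.90 in Kit-B6 and 1.00 in Kit-W/sh (edgeR adjusted p = 0.0179 and 0.0198). Zbp1, a sensor of Z-form nucleic acid, fell by 1.40 in Kit-B6 (edgeR adjusted p = 0.0172).

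Of 14 listed transcription factors below these routes, 9 were tested, and 2 rose and 2 fell in Kit-B6 while 1 rose and 3 fell in Kit-W/sh. These numbers are too small to set the list apart from the shares over all genes. Rela, a subunit of NF-kB, rose in both (0.64 ± 0.18 and 0.60 ± 0.21), and Nfkb1, another subunit, rose in Kit-B6 (0.76 ± 0.22). Irf1, which NF-kB and interferon induce, fell by 1.28 and 1.77 on the log2 scale. Irf3, the substrate of Tbk1, fell by 0.85 in Kit-W/sh (edgeR adjusted p = 0.0158) and differed by -0.52 ± 0.23 in Kit-B6 (edgeR adjusted p = 0.0733). Irf8 fell by 1.21 in Kit-W/sh, and Irf7, which amplifies interferon production, fell by 1.99 in Kit-B6. Of 4 negative regulators measured, 2 fell in Kit-B6 and 3 in Kit-W/sh, namely Socs1 and Sigirr in both and Cyld in Kit-W/sh. Sigirr, which restrains Toll-like and interleukin 1 receptors, changed by -1.995 and -1.84. Cd36, a scavenger receptor that assists surface Toll-like receptors, was the single accessory gene measured and fell by 1.30 in Kit-W/sh.

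The lists of induced genes were described side by side, and the difference between them was not tested. Of 15 tested cytokine and adhesion genes that NF-kB induces, 10 rose and 1 fell in Kit-B6 and 12 rose and 1 fell in Kit-W/sh (medians 2.40 and 4.47). The neutrophil chemokines Cxcl5 (6.45 ± 0.74 and 4.66 ± 0.80) and Cxcl2 (7.85 ± 1.24 and 6.84 ± 1.197) rose in both, and Ccl5, a T cell chemokine, was the one that fell. The cytokine gene Il1b went from 58.5 ± 25.6 to 610 ± 341 CPM in Kit-B6 mice. Of 11 tested interferon pathway genes, 0 rose and 6 fell in Kit-B6, and 0 rose and 1 fell in Kit-W/sh (medians -0.83 and -0.70). The single call in Kit-W/sh is a smaller share than the 18.8% of all genes that fell there. The 6 in Kit-B6 were Oas1a, Oas2, Oas3, Oasl1, Bst2 and Irf9. Oas1a, an enzyme that senses double-stranded RNA, was the gene that fell in both (-2.815 ± 0.43 and -1.47 ± 0.48), and Bst2 differed by 0.54 ± 0.48 in Kit-W/sh (edgeR adjusted p = 0.38). The neutrophil and macrophage sums stand beside Cd14, and the B cell sum was 150 to 2888 CPM in Kit-B6 preneoplastic colon and 33.1 to 804 CPM in Kit-B6 tumors. The part of these cells in either list was not tested.

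**Figure D4:**
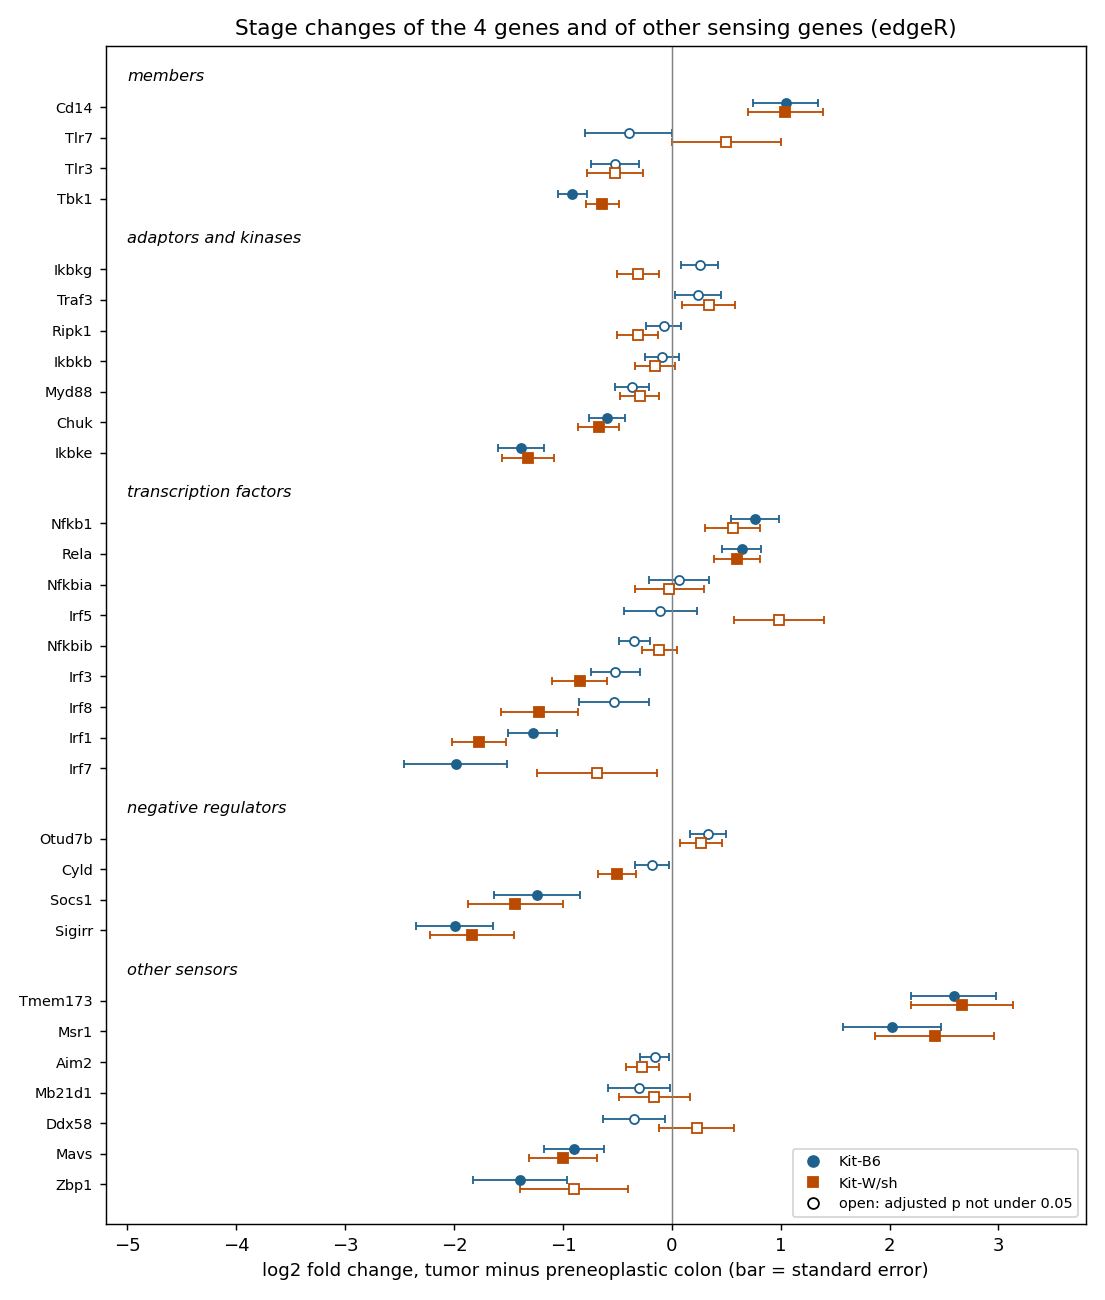
Log2 fold change from preneoplastic colon to tumor (horizontal axis, bars are standard errors) in Kit-B6 (circles) and Kit-W/sh (squares) for the 4 genes and for the tested genes of 4 lists; open symbols did not pass. Tmem173 lies far to the right in both genotypes, and Ikbke, Mavs, Chuk and Tbk1 lie to the left.

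Between genotypes these lists gave 1 call, Irf7 in preneoplastic colon. It was at 1072 ± 125 CPM in Kit-W/sh against 4440 ± 611 CPM in Kit-B6 (-2.07 ± 0.20, edgeR adjusted p = 0.0237). No gene passed with unscaled totals, with the 9 last-listed genes as scaling, with all 17 libraries in the fit, or without Kit-B6 sample 3, Kit-W/sh sample 1 or Kit-W/sh sample 2, so this call ended in each. Nfkbia, an NF-kB inhibitor that NF-kB itself induces, resembled Cd14 in that its Kit-W/sh tumors averaged 3056 ± 998 CPM against 1850 ± 583 CPM (0.71 ± 0.24, edgeR adjusted p = 0.229), which did not pass. Among 14 tested NF-kB-induced genes 0 passed in tumors, with a median of 1.73 against -0.01 over all genes. Mb21d1, the cytosolic DNA sensor cGAS, averaged 97.6 ± 28.7 against 63.6 ± 14.1 CPM (0.60 ± 0.25, edgeR adjusted p = 0.31). Among 10 tested interferon pathway genes 0 passed at either stage, with medians of -1.23 in preneoplastic colon and -0.08 in tumors. Preneoplastic Oas3 was at 149 ± 29.4 CPM in Kit-W/sh against 966 ± 423 CPM in Kit-B6 (-2.72 ± 0.46, edgeR adjusted p = 0.228). Oas2 there was at 137 ± 1.41 against 1091 ± 625 CPM (-3.02 ± 0.63, edgeR adjusted p = 0.253).

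Across the 12 tumors, the genes whose levels followed each member most closely were ranked by Pearson r of log2(CPM + 1) over 798 other genes. For Cd14 these were Srsf7 (r = 0.86), Il1b (r = 0.85) and Sgms1 (r = 0.84), with Spearman rho of 0.90, 0.92 and 0.78. Il1b encodes an inflammatory cytokine of myeloid cells. Without the library labelled Kit-W/sh tumor 2 and Kit-B6 tumor 4, the libraries farthest from the median of Cd14, r was 0.79, 0.91 and 0.84. For Tlr3 the closest were Synj1, Apol7a and Ikzf2 (r = 0.90, 0.85 and 0.85, rho 0.90, 0.87 and 0.87), and without Kit-W/sh tumors 5 and 6 r was 0.86, 0.78 and 0.77.

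For Tlr7 the closest genes were the inhibitory leukocyte receptor Lair1, the transcription factor Mef2c and the chemokine receptor Cxcr3 (r = 0.87, 0.78 and 0.74, rho 0.78, 0.84 and 0.89). Without Kit-W/sh tumor 5 and Kit-B6 tumor 5, r was 0.80, 0.74 and 0.84. For Tbk1 they were Mrps27, Adat2 and Cdc5l (r = 0.85, 0.81 and 0.81, rho 0.87, 0.76 and 0.80), and without Kit-B6 tumor 6 and Kit-W/sh tumor 6 r was 0.86, 0.76 and 0.77. None of the 4 genes was among the 3 closest to another. Cd14 and Tlr3 gave r = -0.57 (rho -0.61), which was -0.43 without the 2 libraries farthest from the median of Cd14, -0.21 without the 2 farthest from the median of Tlr3 (Kit-W/sh tumors 5 and 6) and -0.40 within genotypes, so it rests in part on those tumors. These are the highest of many values over libraries that share 1 scaling, and carry no p.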

How the data were processed

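Counts per panel gene were deposited by the authors as 1 table per library; the libraries were made with the QIAseq Targeted RNAseq Mouse Immuno-Oncology panel, per the labels' protocols. The submitters' processing notes name mm9 and DESeq2; the aligner, the counter and whether reads or molecular tags were counted are not given in the sources used here. The 5 genomic DNA control amplicons (0 counts in all 17 libraries) were left out. Groups and replicate numbers came from titles. Libraries of a group differed beyond counting noise (lowest chi-square per degree of freedom 13). Nothing in the labels gives each sample its own mouse, so the spread behind a p-value may be partly technical.

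Counts were tested in R 4.3.3 with edgeR 4.0.16: TMM scaling, filterByExpr (minimum count 10, minimum total 15), quasi-likelihood F test (robust, two-sided) and Benjamini-Hochberg adjustment over all genes tested, threshold 0.05. Genotype was fitted within each stage; stage and interaction on all 17 libraries in 4 groups. CPM used TMM over all 17 libraries. All 4 genes passed the filter in each fit. Within-library ratios used counts + 0.5. Scripts were tested on simulated counts. Alternatives were DESeq2 1.42.0, other scalings, no filter, other libraries in the fit, a replicate block and leaving out each library; scaling to the 9 last-listed genes was added after seeing the data.

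The members and lists were chosen with earlier results of these data known (104 of 218 list genes were on the panel). Named genes were the members, from each pathway list and comparison up to 6 genes past the threshold or the 2 with the smallest p, of which the text gives part, and the 3 closest genes by r.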

Additional observations from a re-analysis of the deposited data

How the results depend on the processing

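Of 360 values of the 4 genes under the alternatives, 334 kept their direction and side of the threshold, 7 lost the call, 1 gained it and 18 changed sign. No alternative gave a genotype or interaction call for any of the 4 genes. In Kit-B6 across stages, 2 of the 4 genes passed under all 8 alternatives other than leaving out a library, and between 1 and 3 when each library was left out. In Kit-W/sh across stages, 0 passed with reference-gene scaling and 1 with the replicate block (Cd14 0.98, adjusted p = 0.0884), and between 0 and 2 when each library was left out. The cause was not tested. Genes called between genotypes in tumors were 27 with DESeq2 and 0 to 0 over left-out libraries. In preneoplastic colon they were 20 with DESeq2, 0 with unscaled totals, the replicate block, the 9 last-listed genes or all 17 libraries in the fit, and 0 to 16 over left-out libraries. Genes called across stages were 265 to 425 in Kit-B6 and 132 to 367 in Kit-W/sh over left-out libraries, and 180 in Kit-W/sh with reference-gene scaling. The interaction gave 1 gene with DESeq2 and 0 to 2 over left-out libraries. Across stages the calls split into 193 higher and 164 lower in Kit-B6, against 273 and 101 with unscaled totals and 162 and 83 with reference genes, and into 182 and 163 in Kit-W/sh, against 253 and 108 with unscaled totals and 240 and 103 with the 9 last-listed genes. The interaction changed sign for Tlr3 at 0.016 with unscaled totals, 0.00031 with reference genes and 0.15 with the 9 last-listed genes, and for Cd14 at 0.039 with the replicate block and 0.096 with the 9 last-listed genes. Over left-out libraries it ran from -0.14 to 0.15 for Cd14 and from -0.11 to 0.11 for Tlr3, and the stage value of Tlr7 in Kit-B6 ran from -0.68 to 0.25. Where a left-out library leaves 1 preneoplastic Kit-W/sh sample, that sample is assumed to vary like the other groups. Same-numbered samples correlated between -0.195 and 0.39, so the numbers are not taken as pairs; the replicate block lowered the genes called across stages to 276 in Kit-B6 and 250 in Kit-W/sh. The 2 to 3 preneoplastic libraries per genotype and the 8 to 55 counts of Tlr7 limit the precision.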
